A study of Gossypium hirsutum with 4 samples.

Results

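Scaffolds of upland cotton (Gossypium hirsutum) whose names end in D01 to D13 carried 523 of the 18015 D53 peaks and 538 of the 19400 B peaks. That is 2.90% of the D53 list and 2.77% of the B list. These peaks were taken by scaffold name alone, as every row on a sequence named as a numbered scaffold with a chromosome of the D subgenome as its ending, such as scaffold4312_D08. The samples were 4 leaf libraries, with no age, strain or transgene given in the labels: a FLAG immunoprecipitate (IP) labelled D53, a FLAG IP labelled B, and the input chromatin of each. Neither the identity of B, nor the promoter that drove a tagged protein, nor any pooling of plants is stated in the labels. Each IP was 1 library, each list came from 1 IP against its own input, and read depth is unknown, so the lists are described and no test compares D53 with B.

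Strigolactones are plant hormones that restrain shoot branching, and D53 holds their signalling pathway in check until hormone perception leads to its breakdown. The title of the series calls it a repressor with a dual function in cotton. The FLAG epitope is fused to a protein so that an antibody to the tag can pull it down. Upland cotton is an allotetraploid with an A and a D subgenome. A scaffold is an assembled stretch of sequence that was not joined into a chromosome, and here the ending of its name is read as the chromosome it was assigned to. That assignment was not tested, since no sequence or length of these scaffolds was used here. The gene table at hand names 0 of the 331 scaffolds, so the peaks are given by position and not by gene.

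The peaks were spread thinly over many scaffolds, with 1 large exception. Of the 331 scaffolds with a peak, 240 had a D53 peak, 269 had a B peak and 178 had both. On 136 scaffolds the D53 list held a single peak, and on 165 the B list did. Only 4 scaffolds reached 10 peaks in either list. The exception was scaffold4312_D08, which carried 54 D53 and 62 B peaks. It alone held 10.3% of the D53 peaks and 11.5% of the B peaks of this class, within a stretch of 102 kb. The next was scaffold3920_D03, with 28 D53 peaks over 5303 kb and 15 B peaks within that stretch. Because so much rests on scaffold4312_D08, results that include it are given with and without it.

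Counts by named chromosome followed the same pattern. Scaffolds named after D08 held the most peaks, 82 for D53 and 94 for B. Without scaffold4312_D08 they held 28 and 32, within the range of the others. Scaffolds named after D09 held the fewest D53 peaks, 14, beside 26 B peaks. Scaffolds named after D07 held the fewest B peaks, 22, beside 21 D53 peaks. The D53 list exceeded the B list by most on D03, with 59 peaks against 38. On that chromosome 28 of the D53 peaks and 15 of the B peaks were on scaffold3920_D03. Over the 13 named chromosomes the D53 and B counts had a Pearson r of 0.88 and a Spearman rho of 0.80. Without scaffold4312_D08 r was 0.75 and rho 0.79. Both lists were drawn on the same scaffolds, whose lengths were not used, so this is a description only.

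**Figure D1:**
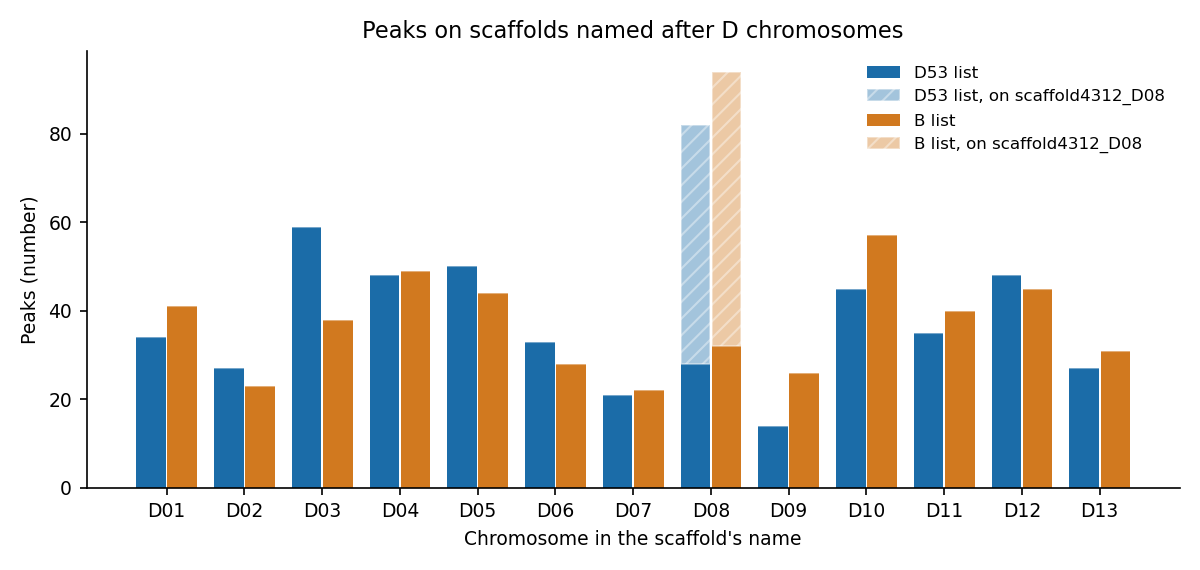
Number of D53 peaks (left bar) and B peaks (right bar) on scaffolds named after each D chromosome, with the peaks of scaffold4312_D08 hatched. D08 reached 82 D53 and 94 B peaks, of which 54 and 62 were on that scaffold.

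Scaffold peaks were not a fixed fraction of the peaks on the chromosome of the same name. For every 100 D53 peaks on the chromosome there were 41.5 on scaffolds for D03 and 8.24 for D09. D08 stood at 27.7, but at 9.46 without scaffold4312_D08, next to the lowest. For B the values lay between 8.24 for D02 and 24.0 for D04, apart from D08 with 33.9, or 11.6 without scaffold4312_D08. Across the 13 names, scaffold counts and chromosome counts had a Spearman rho of 0.33 in the D53 list and 0.22 in the B list.

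Peaks were narrow in both lists. The median width was 285 bp for D53 (quartiles 235.5 and 403.5) and 272.5 bp for B (quartiles 218.25 and 380). The D53 widths ran between 199 and 2884 bp, and those of B between 186 and 2158 bp. In each list 13 peaks were at least 1 kb wide. The widest D53 peak lay on scaffold4312_D08 at 18416 to 21299, and the widest B peak on scaffold4083_D05 at 15047 to 17204, where it scored only 11. Without scaffold4312_D08 the median D53 width was 275 bp (95% interval of the median 266 to 287), against 266 bp on the D chromosomes (263 to 270). For B it was 259 bp (252 to 273), against 255 bp (252 to 260). These intervals overlapped in both lists.

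The 1 value given for each peak is a whole number, called the score here. What it measures is not stated by any source used here, and scores are compared within a list or as ratios within pairs. The D53 list had a median score of 8, quartiles of 5 and 18 and a top score of 286. The B list had a median of 13, quartiles of 8 and 31 and a top score of 639. A score of 50 or more was reached by 54 D53 peaks, or 10.3%, and by 106 B peaks, or 19.7%. In the whole lists the shares were 6.43% for D53 and 13.4% for B. On the D chromosomes the shares were 4.70% and 9.77%. The D53 share was thus 5.62 percentage points higher on the scaffolds (95% Newcombe interval 3.15 to 8.61), and the B share 9.93 points higher (6.60 to 13.6). Without scaffold4312_D08 the scaffold shares were 5.12% for D53 and 9.66% for B, below those of the whole lists. Neither difference from the D chromosomes was then detectable, at 0.41 points for D53 (-1.44 to 2.90) and -0.11 points for B (-2.69 to 3.04). The D chromosomes hold dense clusters of their own, in 6 windows of 100 kb where both lists have 10 or more peaks. With scaffold4312_D08 and these dense windows both left out, the scaffold share was again above that of the D chromosomes. The difference was 1.94 points for D53 (0.14 to 4.40) and 3.54 points for B (1.03 to 6.64). Against scaffolds named after A chromosomes the difference was 4.77 points for D53 (2.28 to 7.78) and 6.11 points for B (2.70 to 9.88). Without scaffold4312_D08 it was -0.43 points (-2.32 to 2.08) and -3.93 points (-6.61 to -0.71). Against scaffolds with no chromosome in their name it was 0.15 points (-2.32 to 3.16) and 1.04 points (-2.25 to 4.74). Without scaffold4312_D08 it was -5.05 points (-6.91 to -2.54) and -9.00 points (-11.5 to -5.86). All these intervals cover counting error only and treat neighbouring peaks as independent, which they are not. Wider peaks tended to score higher, with a Spearman rho of 0.45 over D53 peaks and 0.40 over B peaks.

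By named chromosome, the median D53 score lay between 5.5 on D09 and 12 on D12, apart from D08 with 34. Leaving out scaffold4312_D08 brought D08 to 6. For B the medians lay between 8.5 on D09 and 21 on D12, apart from D08 with 117.5, or 10 without that scaffold. The highest score of a chromosome was lowest on D02 and D07 for D53, at 30 each, and on D02 for B, at 51.

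The 10 highest D53 peaks came from only 3 scaffolds. The highest was on scaffold3975_D04 at 83187 to 83551, with a score of 286, where the overlapping B peak scored 328. The second was on the same scaffold at 72128 to 72418, with 167 beside 140 for B. The third was on scaffold3970_D04 at 1182593 to 1182922, with 155 beside 145 for B. At these sites the scores of both lists were close. Scaffold4312_D08 gave 5 of the other 7, led by 12070 to 12831 with a D53 score of 150 beside 639 for B, and by 8016 to 9679 with 149 beside 518 for B. The 10 highest B peaks were all on scaffold4312_D08, with scores of 408 to 639 and D53 partners of 83 to 150. Each of the 20 had a partner in the other list.

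Just under 50% of the scaffold peaks shared 1 bp or more with the other list. The count was 250 of 523 D53 peaks, or 47.8% (95% Wilson interval 43.6 to 52.1), against 44.0% of the whole D53 list. From the other side it was 254 of 538 B peaks, or 47.2% (43.0 to 51.4), against 41.3% of the whole B list. Without scaffold4312_D08 the shares were 41.8% for D53 (37.4 to 46.3) and 41.8% for B (37.5 to 46.3), both near the share in their whole list. On the D chromosomes 34.5% of D53 peaks (32.8 to 36.2) and 34.1% of B peaks (32.4 to 35.8) overlapped. The scaffold share was 13.3 points higher for D53 (Newcombe interval 8.73 to 17.9) and 13.2 points higher for B (8.64 to 17.7). Without scaffold4312_D08 the differences were 7.31 points (2.60 to 12.1) and 7.75 points (3.08 to 12.5). With the dense windows left out as well, they were 10.00 points for D53 (5.29 to 14.8) and 10.05 points for B (5.38 to 14.8). Against scaffolds named after A chromosomes the difference was 2.92 points for D53 (-1.71 to 7.58) and 3.00 points for B (-1.57 to 7.59), so none was detectable at these numbers of peaks. Without scaffold4312_D08 these differences were -3.09 points (-7.84 to 1.78) and -2.41 points (-7.12 to 2.42). Against scaffolds with no chromosome in their name the D53 difference was -7.33 points (-11.8 to -2.84), and the B difference was 0.63 points (-3.74 to 5.03). Without scaffold4312_D08 both were below 0, at -13.3 points for D53 (-17.9 to -8.63) and -4.78 points for B (-9.30 to -0.13).

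Scores differed along with this share. Among D53 peaks with a score under 5, 7 of 89 overlapped a B peak, or 7.87% (3.86 to 15.4). From 5 to 9 it was 29.1% (23.4 to 35.5), from 10 to 19 it was 62.2% (52.4 to 71.2), and from 20 to 49 it was 95.7% (88.0 to 98.5). All 54 D53 peaks with a score of 50 or more had a B partner (93.4 to 100). On the D chromosomes the shares in the same order were 5.37%, 29.1%, 64.3%, 93.4% and 96.4%. In each of these 5 bands the interval of the difference between scaffolds and D chromosomes spanned 0, with the widest from -12.9 to 8.17 points at scores of 10 to 19. Had each band overlapped at its D chromosome rate, 47.1% of the D53 scaffold peaks would have had a partner, beside 47.8% observed. Without scaffold4312_D08 these values were 41.7% and 41.8%. Scores under 5 made up 17.0% of D53 peaks on the scaffolds and 32.8% on the D chromosomes. They made up 18.7% on scaffolds named after A chromosomes and 10.2% on those with no chromosome in their name.

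Among B peaks the overlap was 15.9% at scores of 5 to 9 (95% Wilson interval 11.4 to 21.8), 41.5% at 10 to 19 (33.9 to 49.6) and 71.6% at 20 to 49 (61.4 to 80.0). On the D chromosomes the shares in these bands were 14.5%, 40.0% and 64.3%, and each interval of the difference spanned 0. Under a score of 5, 0 of 8 B peaks on the scaffolds overlapped, which allows up to 32.4%. From 50 upwards 100 of 106 scaffold peaks overlapped, or 94.3% (88.2 to 97.4), against 87.0% on the D chromosomes. That difference was 7.30 points (Newcombe interval 0.31 to 12.5), and 10.8 points without scaffold4312_D08 (1.03 to 15.4). It was the only 1 of the 10 band differences whose interval lay apart from 0, and no adjustment for 10 intervals was made. At the D chromosome rates, 43.8% of the B scaffold peaks would have had a partner, beside 47.2% observed. Without scaffold4312_D08 these values were 38.3% and 41.8%. The distance between the observed share and the share at these rates was larger in the B list than in the D53 list, and was not tested.

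**Figure D2:**
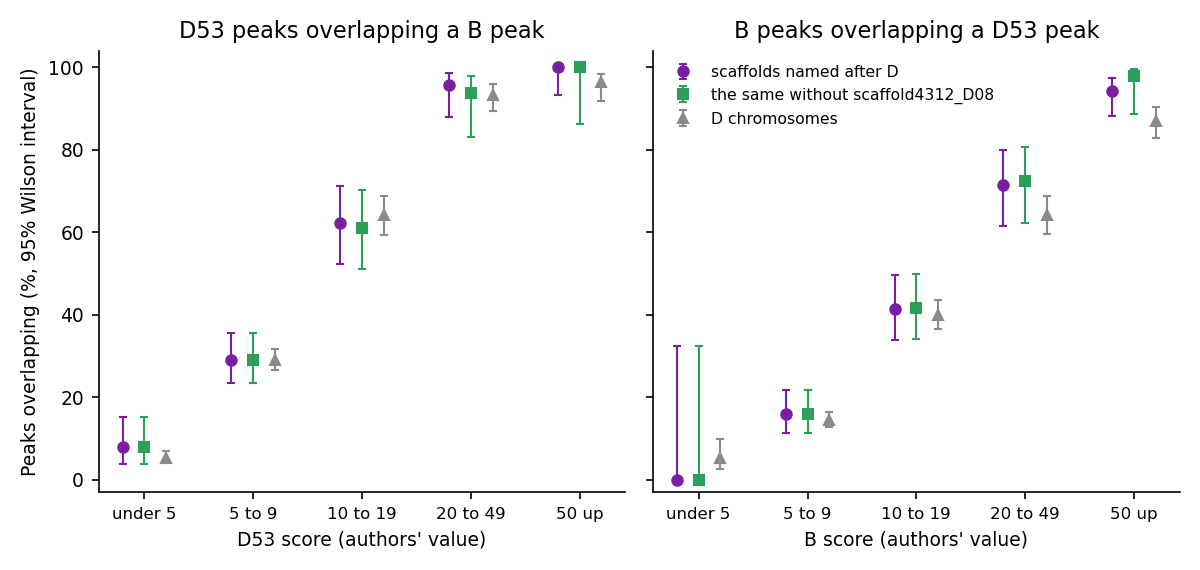
Share of D53 peaks (left) and B peaks (right) that overlap a peak of the other list, by score band, with 95% Wilson intervals, for scaffolds named after D chromosomes, the same without scaffold4312_D08, and the D chromosomes. The share rises with score in all sets, from 7.87% under a score of 5 to 100% from 50 upwards for D53 on the scaffolds.

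Overlap varied between named chromosomes. For D53 it was highest on D08, where 65 of 82 peaks overlapped, or 79.3% (95% Wilson interval 69.3 to 86.6), and 39.3% without scaffold4312_D08. The next were D09 with 9 of 14 peaks, or 64.3% (38.8 to 83.7), and D04 and D12 with 27 of 48 peaks each, or 56.2% (42.3 to 69.3). The lowest was D06 with 9 of 33, or 27.3% (15.1 to 44.2). Apart from D08 every pair of these intervals overlaps. Overlap of intervals does not show that shares are equal, and differences between named chromosomes were not tested. For B the shares ran from 28.1% on D10 (18.1 to 40.8) to 57.8% on D12 (43.3 to 71.0), with D08 above them at 71.3% (61.4 to 79.4) and at 37.5% without scaffold4312_D08. On D03, with 59 D53 and 38 B peaks, the shares were 33.9% for D53 and 55.3% for B, and on D09, with 14 D53 and 26 B peaks, they were 64.3% and 30.8%. The scaffold share exceeded that of the chromosome of the same name in 11 of 13 cases for D53 and in 9 of 13 for B. The lower bound of the scaffold interval lay above the chromosome's share in only 6 of 13 for D53 and 5 of 13 for B. Without scaffold4312_D08 the higher shares numbered 10 and 8, and those with the lower bound above numbered 5 and 4. D05 and D06 were the exceptions for D53, with 32.0% and 27.3% on the scaffolds against 39.1% and 40.7% on the chromosomes.

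Many peaks without a partner lay on a scaffold where the other list had no peak at all. That held for 77 of the 273 D53 peaks without a partner and for 112 of the 284 B peaks, or 14.7% and 20.8% of all D53 and B peaks of this class. These peaks had a median score of 5 for D53 (highest 21) and 9 for B (highest 39). All peaks of this class without a partner had medians of 6 and 9. On the 178 scaffolds with peaks in both lists, the overlapping share was 56.1% for D53 (51.4 to 60.6) and 59.6% for B (54.9 to 64.2). A chromosome always carries both lists, so the share among all scaffold peaks is the one set beside chromosomes. Among the 61 scaffolds with exactly 1 peak of each list, the peaks overlapped on 35. On 46 scaffolds every peak of both lists had a partner. Such counts by scaffold were not made for scaffolds with another ending or none, so whether they are particular to this class was not tested.

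Among peaks without a partner, strong ones were about as frequent as on the D chromosomes. No D53 peak without a partner scored above 21, and 3 of 273 reached 20, or 1.10% (95% Wilson interval 0.37 to 3.18), against 1.08% on the D chromosomes and 2.35% in the whole D53 list. They were at 174943 to 175166 on scaffold3974_D04 (21), 1472 to 1673 on scaffold4132_D06 (21) and 23978 to 24265 on scaffold4120_D06 (20). In the B list 31 of 284 such peaks reached 20, or 10.9% (7.80 to 15.1), against 9.11% on the D chromosomes and 12.97% in the whole B list. Without scaffold4312_D08 it was 25 of 277, or 9.03%. A score of 50 was reached by 6 of the 284, beside 39 of the 2031 B peaks without a partner on the D chromosomes. Of these 6, 5 were on scaffold4312_D08, with scores of 59 to 75 where its B peaks had a median of 208. The remaining one was on scaffold4206_D07 at 37834 to 38021, with a score of 69 and the nearest D53 peak 35432 bp away. It was 188 bp wide, close to the narrowest B peak of 186 bp. Peaks without a partner lay at most 1 kb from a peak of the other list in 17.6% of cases for D53 (13.5 to 22.5) and 17.3% for B (13.3 to 22.1). In the whole lists this was 15.5% and 16.5%, so the scaffold values were near the background.

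The 250 D53 and 254 B peaks with partners formed 258 overlapping pairs, of which 234 had no second partner. The D53 and B scores of a pair had a Spearman rho of 0.93. B had the higher score in 235 pairs, D53 in 16, and 7 were equal. D53 was thus higher in 6.20% of the pairs, and in 7.92% without scaffold4312_D08. Among all pairs in the series it was higher in 7.87%, so these shares were near the background. Over all 258 pairs the log2 of the D53 score over the B score had a median of -0.81 (SD 0.78, quartiles -1.57 and -0.45). On the D chromosomes it was -0.63 (SD 0.70, 1067 pairs), and over all pairs in the series -0.68 (SD 0.67, 8127 pairs). On scaffolds named after A chromosomes it was -0.68, and on those with no chromosome in their name -0.74. Without scaffold4312_D08 it was -0.67 on the scaffolds of this class (SD 0.55, 202 pairs, 95% interval of the median -0.74 to -0.58), near the median of the series. On the D chromosomes without dense windows it was -0.58 (SD 0.54, 949 pairs, -0.58 to -0.53), and the intervals met at -0.58. A value of -2 means that the B score was 4 times the D53 score. With neither scale nor depth known, the sign of a single ratio says nothing about binding, and what follows is how ratios differed between scaffolds.

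Pairs far below the median ratio were concentrated on 1 scaffold. A log2 ratio below -1.5 was found in 66 of the 258 pairs, or 25.6% (95% Wilson interval 20.6 to 31.2), against 13.5% of all pairs in the series. Scaffold4312_D08 carried 55 of the 66. Without it the share was 11 of 202 pairs, or 5.45% (3.07 to 9.49), beside 15.0% on the D chromosomes and 4.95% on the D chromosomes without dense windows. At the other end, 28.7% of the pairs had a ratio above -0.5 (23.5 to 34.5), against 36.1% of all pairs in the series, and 36.6% without scaffold4312_D08 (30.3 to 43.5).

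On scaffold4312_D08 all 54 D53 peaks had a B partner, and 55 of the 62 B peaks had a D53 partner. Peaks covered 28.9% of the stretch between its first and last D53 peak and 30.7% of that for B, with neighbours a median of 800 bp apart in the D53 list and 686 bp in the B list. D53 scores there had a median of 60 (quartiles 33 and 83.75), and B scores one of 208 (quartiles 118 and 338.75). The 56 pairs had a median log2 ratio of -2.10 (SD 0.27, from -2.71 to -1.27), and B had the higher score in all 56. The ratio was close to even along the scaffold. In its 6 successive stretches of 20 kb the medians lay between -2.28 and -1.96, with 2 to 14 pairs in each. Scores within the scaffold were nonetheless wide, between 13 and 150 for D53 and between 10 and 639 for B, with a Spearman rho of 0.95 over pairs.

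Edges were also close there, though they were seldom the same. The median distance between the D53 and B starts of a pair was 12.5 bp on scaffold4312_D08. It was 50 bp in the pairs on other scaffolds of this class and 38 bp in all pairs of the series. For ends it was 14.5 bp, against 53 bp and 38 bp. Of the 202 pairs on other scaffolds, 116 had a geometric mean score under 20, and edges were not compared at equal strength. Close starts also occurred on scaffold3975_D04, in all pairs but the first. The D53 starts there were 72128, 75768, 78026, 83187, 84833, 89560 and 90538. The B starts, in the same order, were 72078, 75775, 78039, 83185, 84826, 89558 and 90550. On scaffold4312_D08 the D53 peak at 34674 to 35303 had a score of 118, beside 540 for its B partner at 34671 to 35372. The one at 57803 to 58409 had 126, beside 503 for B at 57773 to 58413. That at 53668 to 54163 had 120, beside 470 for B at 53681 to 54176. In each of these 3 pairs the B score was several times that of D53. The weakest D53 peak there, at 96035 to 96254, scored 13 beside 62 for B at 96047 to 96275. The lowest ratio of the class was also there, at 95355 to 95557, where scores of 15 for D53 and 98 for B gave a log2 ratio of -2.71. The D53 peak at 18416 to 21299 lay over 2 B peaks, at 18415 to 20081 and 20553 to 21312, with a score of 84 beside 265 and 278. The 7 B peaks without a partner were 187 to 234 bp wide, narrower than the median B peak of the scaffold at 396 bp.

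**Figure D3:**
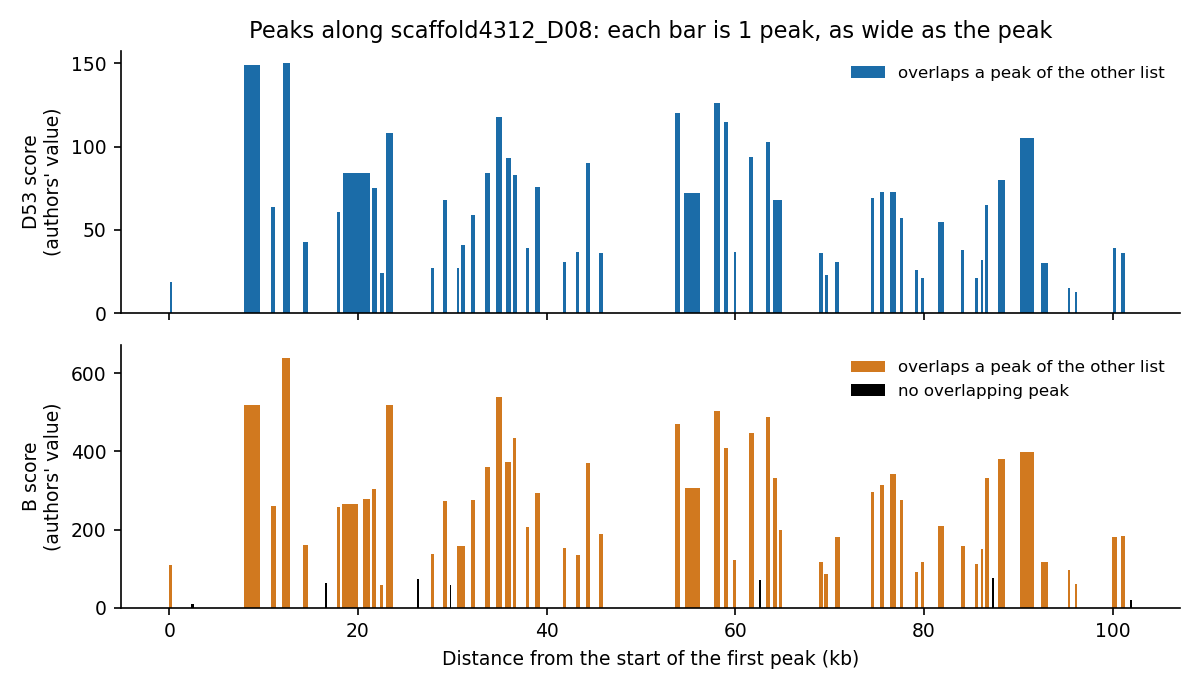
Scores of the 54 D53 peaks (top) and 62 B peaks (bottom) along scaffold4312_D08, by distance in kb from the start of the first peak, with each bar as wide as its peak and the 7 B peaks without a partner in black. Every D53 peak has a B peak at its place, on score axes that reach 150 for D53 and 639 for B.

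Dense windows of the D chromosomes had ratios in the same range as this scaffold. On D08, the window at 15400001 to 15500000 held 45 D53 and 51 B peaks, and its 45 pairs had a median log2 ratio of -2.06 (SD 0.27). The other 5 dense windows of the D chromosomes, on D05, D06 and D12, had medians between -2.19 and -1.87. Whether scaffold4312_D08 and these windows share sequence was not tested, as no sequence of either was used here.

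Other scaffolds with several strong pairs differed widely in ratio. On scaffold3975_D04 all 7 peaks of each list were paired within 18.7 kb. From left to right the D53 scores were 167, 98, 59, 286, 125, 130 and 75, and the B scores 140, 89, 48, 328, 188, 118 and 81. D53 was the higher in 4 of the 7 pairs, and the median log2 ratio was 0.14 (SD 0.31). On scaffold4603_D12 all 5 peaks of each list were paired within 17.6 kb. There the D53 scores were 46, 45, 50, 86 and 93, and the B scores 190, 176, 192, 309 and 344. The ratio was nearly constant, with a median of -1.94 (SD 0.08), close to the value of scaffold4312_D08. The ranges of these ratios did not overlap, with -0.59 as the lowest on scaffold3975_D04 and -1.85 as the highest on scaffold4603_D12. Strong pairs elsewhere could lie between these ranges. On scaffold4625_D12 the 2 pairs with a D53 score of 50 or more had a median log2 ratio of -0.87.

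Ratios could also differ within a scaffold. On scaffold4640_D12 the pair at 4691 to 4923 scored 26 for D53 and 132 for B, with a log2 ratio of -2.34, and the pair at 13809 to 14098 scored 9 and 36, a ratio of -2.00. The pairs farther along, at 39111 and 118640, scored 17 and 36 for D53 and 21 and 61 for B, with ratios of -0.30 and -0.76. The 11 pairs below -1.5 outside scaffold4312_D08 were on 6 scaffolds, and scaffold4603_D12 and scaffold4640_D12 gave 7 of them. Among the other 4, the D53 scores were 4 to 10, and 1 paired a D53 peak of 311 bp with a B peak of 1906 bp on scaffold4375_D09.

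**Figure D4:**
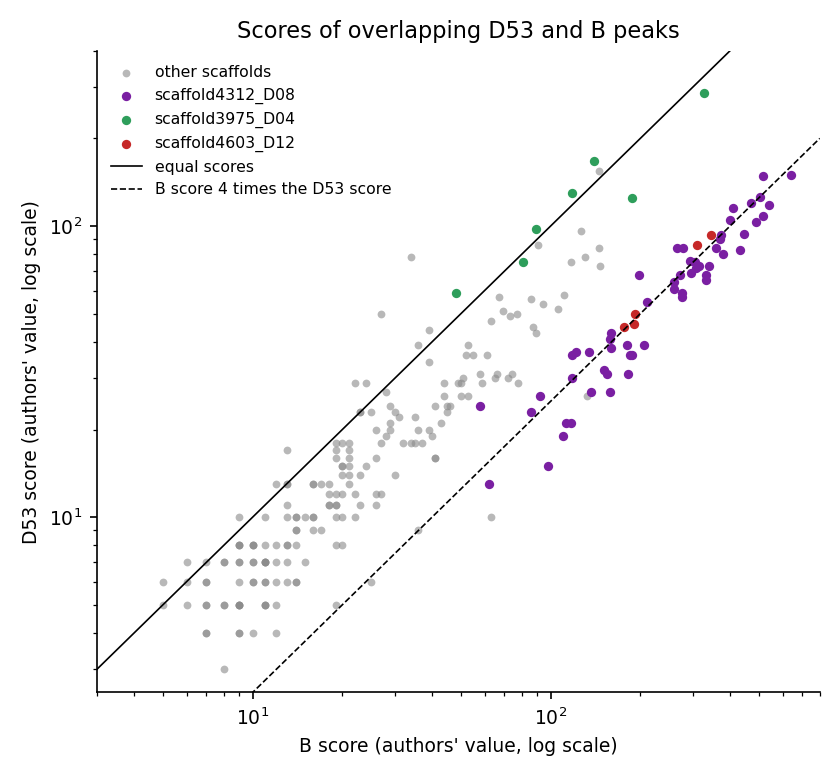
D53 score against B score of the 258 overlapping pairs, both on log scales, with scaffold4312_D08, scaffold3975_D04 and scaffold4603_D12 in colour and lines at equal scores and at a B score 4 times the D53 score. The 56 pairs of scaffold4312_D08 and the 5 of scaffold4603_D12 lie near the line of a 4 times higher B score, and the 7 of scaffold3975_D04 lie near the line of equal scores.

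The large scaffolds differed in kind. Scaffold3920_D03 had 28 D53 peaks with a median score of 7, of which 7 had a B partner, and 15 B peaks with a median score of 11. Its peaks lay 95969 bp apart in the median for D53, against 800 bp on scaffold4312_D08. Its strongest pair, at 1067840 to 1068722, scored 57 for D53 and 67 for B. The 21 D53 peaks there without a partner had scores of 3 to 14. Scaffold4530_D11 had 9 D53 and 10 B peaks over 2077 kb, with 5 of each paired and scores of at most 29 for D53 and 24 for B. Scaffold3974_D04 had 11 D53 and 7 B peaks over 659 kb with 4 pairs, the strongest at 834012 to 834369 with 56 for D53 and 86 for B.

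Pairs outside scaffold4312_D08 were also split by strength. Among pairs whose geometric mean score was under 20 the median log2 ratio was -0.65 (SD 0.45, 116 pairs). It was -0.76 from 20 up to 50 (SD 0.55, 54 pairs), -0.62 from 50 up to 100 (SD 0.85, 21 pairs) and -0.59 from 100 upwards (SD 0.73, 11 pairs). The SD was larger among pairs from 50 upwards, where near-equal and low ratios both occurred. By named chromosome, the median without scaffold4312_D08 was highest on D04, at -0.28 (SD 0.60, 28 pairs), and lowest on D06, at -0.91 (SD 0.32, 9 pairs). Of the 28 D04 pairs, 7 were on scaffold3975_D04, where the median was 0.14, and the D04 median without that scaffold was not taken. The SD of pairs within a named chromosome ran from 0.30 on D02 to 0.78 on D09, and the order of the medians was not tested.

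Ratios above 0 were small among pairs without a second partner. The highest of them was on scaffold4644_D12 at 21627 to 22044, where 17 for D53 and 13 for B gave a log2 ratio of 0.39. It was followed by scaffold3975_D04 at 78026 to 78262, with 59 for D53 and 48 for B, a ratio of 0.30. On scaffold4530_D11 at 1134536 to 1134910 the scores were 29 and 24, and on scaffold3998_D05 at 28736 to 29041 they were 6 and 5. Ratios above these occurred only where a peak had a second partner, with 1.20 as the highest.

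**Figure D5:**
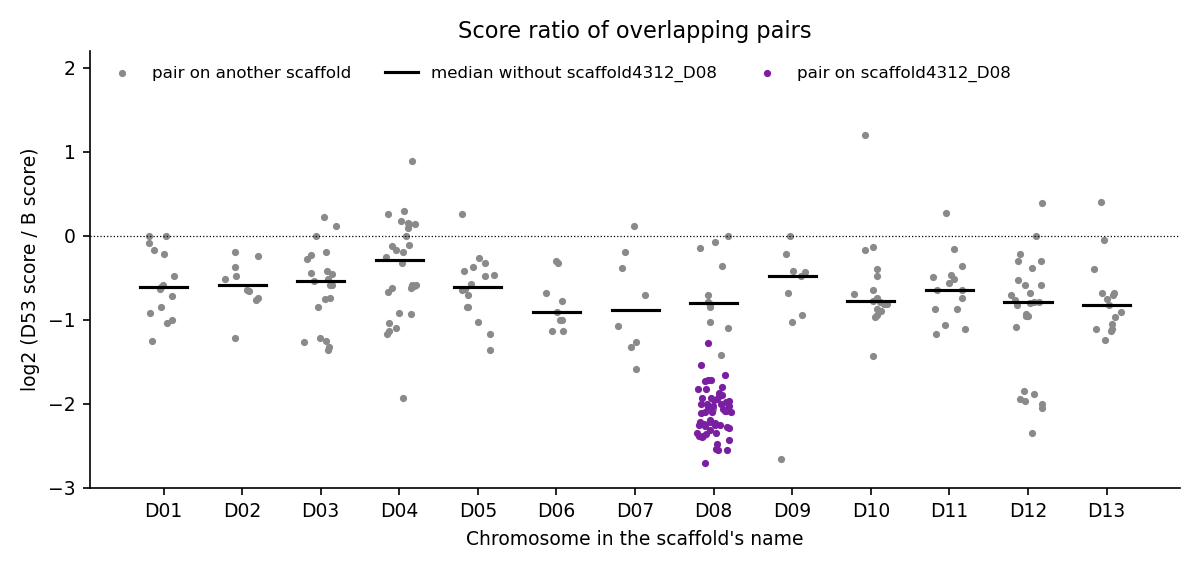
Log2 ratio of D53 to B score for each of the 258 overlapping pairs, by the chromosome in the scaffold's name, with pairs of scaffold4312_D08 in colour and a bar at the median of the other pairs. The other pairs have medians between -0.91 on D06 and -0.28 on D04, while the 56 pairs of scaffold4312_D08 lie between -2.71 and -1.27. Of the 28 D04 pairs, 7 are on scaffold3975_D04, where the median is 0.14.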

How the data were processed

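Chromatin of cotton leaves was cross-linked with formaldehyde, sonicated and immunoprecipitated, and paired-end Illumina sequencing followed, per the labels' protocols. The authors deposited 1 peak list per IP, without a header, giving sequence, start, end, name and 1 score per peak. Per the peak names, peaks of an IP were called over the input of the same name, from single libraries. The score was a whole number in every row, and neither its definition nor the aligner, peak caller, threshold or genome build is given in the sources used here. Depth is unknown for all 4 libraries. Unequal depth or calling between the IPs could therefore change how many peaks each list holds, their scores and the overlap. In all, 9 peaks start at 0 in the lists, so 1 was added to each start and positions are printed from 1.

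Members and lists were chosen with earlier results of these data known. Peaks overlapping by at least 1 bp were paired. Shares carry 95% Wilson intervals, differences of shares 95% Newcombe intervals, and medians order-statistic intervals, all for counting error of peaks only. Named peaks are the 10 highest of each list, the 10 pairs with the highest lower score (their values stand with the peaks they join), the 5 highest peaks of each list without a partner, the 5 highest and 5 lowest ratios among pairs without a second partner, and the 10 fullest scaffolds. Of these, the ones that carry a result are printed. Score bands, dense windows, ratio bounds, the widest peaks and the low-ratio pairs outside scaffold4312_D08 were chosen after the values were seen. Pairing and intervals were tested on simulated data, and overlap was checked with bedtools 2.31.1. Tables were handled in pandas 2.3.3 under Python 3.11.15, intervals in SciPy 1.17.1 with NumPy 2.4.6, and plots in matplotlib 3.10.9.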

Additional observations from a re-analysis of the deposited data

How the results depend on the processing

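Of 523 D53 and 538 B peaks, a score of at least 20 kept 123 and 194. Score limits were applied to both lists before peaks were paired, so a partner had to pass them too. The D53 share with a partner, 47.8%, stayed inside its interval only under a rule of 50% coverage of the shorter peak (44.2%). It was 38.4% with at least 50% of both peaks covered, 41.1% with midpoints at most 200 bp apart, 74.7% above the whole list's median score, 97.6% at scores of at least 20, 42.8% without scaffolds of 10 or more peaks, 56.1% on scaffolds with both lists, 42.0% without scaffolds named after D08 and 41.8% without scaffold4312_D08. The B share, 47.2%, was 43.9%, 37.4%, 40.0%, 70.0%, 64.9%, 41.2%, 59.6%, 42.1% and 41.8% in the same order. The median log2 ratio, -0.81, was -0.68 without scaffolds of 10 or more peaks, -0.70 with 1 value per scaffold, -1.09 at scores of at least 20 in both lists and -0.67 without scaffold4312_D08. It stayed within its interval for pairs without a second partner and with 50% of both peaks covered. Median widths at scores of at least 20 were 404 bp (D53) and 333.5 bp (B). The median D53 score was 7 without scaffolds of 10 or more peaks, with 1 value per scaffold and without scaffold4312_D08, and the B score moved within its interval. Leaving out scaffold4312_D08 was chosen after seeing the data. Fewer peaks entered by construction where peaks or scaffolds were left out, and stricter rules on coverage can only lower a share. Why the midpoint rule gave lower shares was not tested; the cause was not tested for the score limits either. No paired analysis was possible because each group has 1 sample and the D53 and B libraries compared carry different numbers. An IP shares its number only with its own input, which enters through the authors' peak calls. With 1 library per group no replicate could be left out. Unknown depth limits every statement on a missing partner.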

Other observations

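Some peaks lay at the very start of their scaffold. A start within the first 1 kb was found for 40 of 523 D53 peaks, or 7.65% (95% Wilson interval 5.67 to 10.2), and 59 of 538 B peaks, or 11.0% (8.60 to 13.9), on scaffolds named after D chromosomes. On scaffolds named after A chromosomes it was 9.24% of D53 and 9.72% of B peaks, inside these intervals. It was 59.6% and 62.2% on scaffolds with no chromosome in their name, 0% in both lists on the D chromosomes, and 19.1% and 21.9% in the whole lists. Scaffold lengths were not used here, so the far ends were not looked at.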
